A study of Mus musculus with 6 samples.

Results

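RNA from transposable elements was compared between 2 libraries of whole mouse testis, taken at 10dpp (days post partum) and at 16.5dpc (days post coitum) from animals heterozygous for Dnmt3L on a C57BL/6 background. These animals were the controls of a study of Dnmt3L knockout testes and carry 1 mutant allele themselves, so neither library is wild type. Material was pooled, from 3 mice for the 10dpp library and from 7 or 8 for the 16.5dpc library, and each age has 1 library. Of the 787 repeat families listed in the series, the 687 with at least 50 counts in the control pair together were measured. The 100 others include 94 listed in at least 1 of the libraries and 6 in neither. The family just inside this minimum was RLTR43A, with 27 and 28 counts at 16.5dpc and 10dpp, and the family just outside was LTR85c, with 27 and 22. The measured families hold 99.95% of the listed counts at 16.5dpc and 99.96% at 10dpp.

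Most mammalian genomic repeats are relics of elements that copy themselves through RNA. LINE-1 elements encode their own reverse transcriptase, SINEs such as B1 and B2 are short, non-coding and borrow the LINE-1 machinery, and endogenous retroviruses carry an internal coding region (entries ending in -int) between long terminal repeats (LTRs) that act as promoters. In the fetal testis, prospermatogonia rebuild DNA methylation on these elements, with Dnmt3L as a cofactor of the methyltransferases, and piRNAs guide silencing to the younger families. Around 10dpp the seminiferous cords hold proliferating spermatogonia and the first meiotic cells beside Sertoli cells. Because the tissue is whole testis, fewer cells of a type and less RNA per cell cannot be told apart. Markers of testis cell types and the Dnmt3L transcript were not analysed here, since the values used are per repeat family.

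The listed counts sum to 2035033 at 16.5dpc and 2275706 at 10dpp. They were scaled to CPM (counts set to a common total of listed counts) with TMM factors (trimmed mean of M values) of 1.07 and 1.02. A ratio is 10dpp over 16.5dpc after adding 0.5 counts, and the interval beside it is the exact 95% Clopper-Pearson interval, which covers counting error only. With 1 library per age a ratio compares 2 libraries, and no p-value is given for it.

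Most families lay within 1.5-fold of equality. Of the 687 measured, 9 were at least 1.5-fold higher at 10dpp (1.31%) and 35 at least 1.5-fold lower (5.09%), and at 2-fold the counts were 3 (0.437%) and 5 (0.728%). Intervals lay above 0 on the log2 scale for 140 families (20.4%) and below 0 for 160 (23.3%). Scaled on total listed counts, which lowers every log2 ratio by 0.06, these became 87 and 216. The log2 ratio itself was above 0 for 331 families (48.2%) and below 0 for 356 (51.8%). Families with fewer counts had larger ratios and wider intervals. Among the 116 families with 50 to 200 counts the median absolute log2 ratio was 0.25 and the median interval was 1.13 wide, while among the 85 with 10000 or more it was 0.096 with a width of 0.075.

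**Figure D1:**
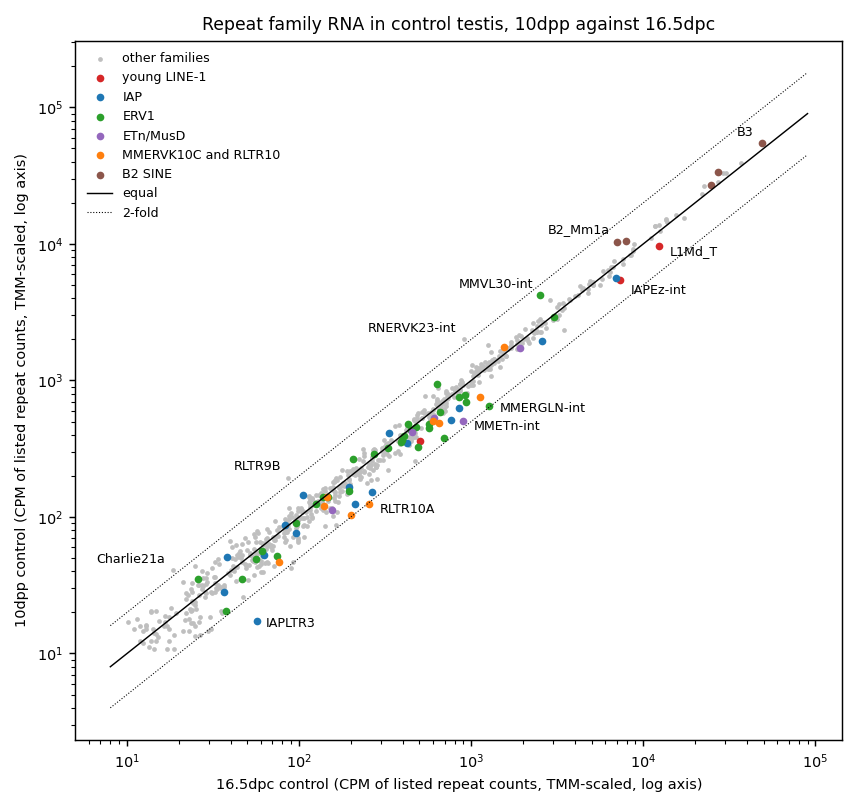
Each point is 1 of the 687 measured repeat families, at its level in the 16.5dpc control (x axis) and in the 10dpp control (y axis), both in TMM-scaled CPM on log axes, with 6 lists coloured. Points follow the line of equality, IAPLTR3 lies farthest below the lower 2-fold line, where RLTR44A, RLTR10A, MER52-int and Arthur1A also lie, and RNERVK23-int, RLTR9B and Charlie21a lie above the upper one.

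The young LINE-1 subfamilies, those with intact copies able to move, were all lower at 10dpp. L1Md_T was at 12335 CPM at 16.5dpc and 9632 CPM at 10dpp, 1.28-fold higher at 16.5dpc (1.26 to 1.3). L1Md_A, whose promoter monomers define it as a separate subfamily, was at 7283 and 5463 CPM, 1.33-fold higher at 16.5dpc (1.3 to 1.36). L1Md_Gf had the fewest counts of the 3, with 1098 at 16.5dpc and 846 at 10dpp, and was 1.39-fold higher at 16.5dpc (1.27 to 1.52). Together the 3 subfamilies took 2.15% of the listed counts at 16.5dpc (exact binomial interval 2.13 to 2.17) and 1.58% at 10dpp (1.57 to 1.6).

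Older LINE-1 families lay closer to equality. The 30 other rodent LINE-1 entries had a median log2 ratio of -0.05, against -0.01 over all 687 families. Of their intervals 15 lay below 0 (50%) and 3 above (10%), beside 23.3% and 20.4% of all families. L1Md_F2, an older mouse subfamily, was at 17280 CPM at 16.5dpc and 15578 CPM at 10dpp, a log2 ratio of -0.15 (-0.17 to -0.13). Lx2A had the lowest log2 ratio of the group (-0.37, from 327 and 272 counts) and L1_Rod the highest (0.18, from 3981 and 4828 counts). Ancient LINE-1, shared across mammals, had a median of 0.06 over 72 measured families. Of its intervals 25 lay above 0 (34.7%) and 6 below (8.33%), beside 20.4% and 23.3% of all families. The ancient LINE-1 median was -0.0031 when scaled on total counts, where 11 intervals lay above 0 and 8 below. The extremes of the ancient group rested on few reads, with 54 and 102 counts for L1M3de (log2 ratio 0.80, 0.33 to 1.32) and 57 and 40 for L1MEg2 (-0.60). L1M4b, picked with its value in view, was higher at 10dpp on more counts (1300 and 1804, 1.3-fold, 1.21 to 1.39).

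Most IAP families were lower at 10dpp. Intracisternal A-particle elements are class II endogenous retroviruses and include many copies that still move in laboratory mice. Intervals were below 0 for 10 of the 16 entries and above 0 for 3, against 23.3% and 20.4% of all measured families, and the median log2 ratio was -0.31. IAPEz-int, the internal region of the main coding IAP group, was at 6929 CPM at 16.5dpc and 5666 CPM at 10dpp, 1.22-fold higher at 16.5dpc (1.19 to 1.25). Its LTR, IAPLTR1_Mm, was at 846 and 623 CPM, 1.36-fold higher at 16.5dpc (1.27 to 1.46). IAPEY3-int was at 2576 and 1929 CPM, 1.34-fold higher at 16.5dpc (1.28 to 1.39).

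The IAP entries differed among themselves. IAPLTR3 had the lowest log2 ratio of all 687 families, with 123 counts at 16.5dpc and 40 at 10dpp, 3.27-fold higher at 16.5dpc (2.29 to 4.83). The internal entry of the same name, IAPLTR3-int, was at 195 and 166 CPM, a log2 ratio of -0.23 (-0.44 to -0.04), so the intervals of the LTR and its internal region did not overlap. The IAPLTR2 entries lay between them, at -0.82 for IAPLTR2a, -0.75 for IAPLTR2b and -0.57 for IAPLTR2_Mm. The other direction was taken by IAPEy-int (229 and 340 counts, 1.39-fold higher at 10dpp, 1.17 to 1.65) and IAP-d-int (725 and 960 counts, 1.24-fold, 1.12 to 1.36). The third interval above 0 was that of IAPEY_LTR, whose lower bound was 0.00 on 83 and 119 counts. IAP as a whole took 1.39% of the listed counts at 16.5dpc (1.38 to 1.41) and 1.06% at 10dpp (1.05 to 1.08).

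ETn/MusD and MMERVK10C, class II groups related to IAP, were also lower in most entries. ETn elements lack coding capacity and use proteins of MusD. All 5 ETn/MusD entries had log2 ratios below 0, and 4 had intervals below 0, beside 51.8% and 23.3% of all families. MMETn-int was at 895 CPM at 16.5dpc and 506 CPM at 10dpp, 1.77-fold higher at 16.5dpc (1.64 to 1.9). ETnERV-int was 1.38-fold higher at 16.5dpc (1.17 to 1.63, from 338 and 262 counts). ETnERV2-int, at 1927 and 1731 CPM, and the LTR RLTRETN_Mm, at 611 and 533 CPM, were nearer equality with log2 ratios of -0.15 and -0.20, while the interval of ETnERV3-int held 0 (-0.24 to 0.02).

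Of the 9 MMERVK10C and RLTR10 entries, 6 had intervals below 0 and 1 above, against 23.3% and 20.4% of all families. Their median was -0.42 and the log2 ratio of their summed counts -0.24. The exception was MMERVK10C-int itself, the internal region, at 1554 CPM at 16.5dpc and 1743 CPM at 10dpp, 1.12-fold higher at 10dpp (1.07 to 1.17). RLTR10C, its LTR, was at 599 and 505 CPM, 1.19-fold higher at 16.5dpc (1.1 to 1.29). Among the other LTRs RLTR10A went from 556 counts to 290, 2.05-fold higher at 16.5dpc (1.78 to 2.37), and RLTR10B2 from 433 to 241, 1.93-fold (1.64 to 2.26). RLTR10-int, a separate internal entry, was 1.49-fold higher at 16.5dpc (1.41 to 1.59).

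ERV1 entries, class I retroviruses related to murine leukaemia virus, lay on both sides of equality. The median log2 ratio was -0.11 over 32 measured, while the ratio of their summed counts was -0.0056 on the same scale. Intervals lay below 0 for 13 entries (40.6%) and above 0 for 4 (12.5%), beside 23.3% and 20.4% of all families. VL30, a non-coding retroelement transcribed in many mouse cell types, was higher at 10dpp in its internal and LTR entries. MMVL30-int was at 2517 CPM at 16.5dpc and 4198 CPM at 10dpp, 1.67-fold higher (1.61 to 1.72), and was the only family with 10000 or more counts that passed 1.5-fold. RLTR6_Mm, the VL30 LTR, was at 631 and 946 CPM, just under 1.5-fold higher (1.4 to 1.61). RLTR6-int, an internal entry that shares the LTR's name, lay the other way, at 927 and 699.6 CPM.

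Other ERV1 entries were lower at 10dpp. MMERGLN-int, the internal region of the GLN retroviruses, was at 1263 CPM at 16.5dpc and 647 CPM at 10dpp, 1.95-fold higher at 16.5dpc (1.83 to 2.08). RLTR1B-int, a further ERV1 internal entry, was at 699 and 377 CPM, 1.85-fold higher at 16.5dpc (1.71 to 2.02), and the LTR entry RLTR1B, from 1073 and 760 counts, 1.51-fold (1.38 to 1.66). Murine leukaemia virus entries differed less. MuLV-int was at 844 and 762 CPM (log2 ratio -0.15, -0.24 to -0.05) and its LTR RLTR4_Mm at 915 and 787 CPM (-0.22, -0.31 to -0.12). MuRRS-int, a defective retroviral entry, was at 196 and 154 CPM (-0.35, -0.56 to -0.14).

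The other class II (ERVK) list held the highest ratios and had a median of -0.02 over 108 measured. Its intervals lay above 0 for 24 (22.2%) and below 0 for 33 (30.6%), beside 20.4% and 23.3% of all families. RNERVK23-int was at 903 CPM at 16.5dpc and 2020 CPM at 10dpp, 2.24-fold higher at 10dpp (2.12 to 2.36) and the highest log2 ratio of all measured families. RLTR9B, an LTR, went from 189 counts to 453, 2.23-fold higher (1.88 to 2.67). Entries with related names lay lower. RLTR9B2 had a log2 ratio of 0.01 (-0.33 to 0.35), and RLTR9C, RLTR9D and RLTR9E had ratios of -0.50, -0.37 and -0.32. MMTV-int, the internal region of mouse mammary tumour virus, was 1.68-fold higher at 10dpp (1.29 to 2.23) on 86 and 156 counts. Its LTR, RLTR3_Mm, was not measured, with 10 and 14 counts. MYSERV6-int, picked with its value in view, was at 1249 and 1804 CPM (1.44-fold higher at 10dpp, 1.38 to 1.52).

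RLTR44A and RLTR44B had the lowest ratios of this list. RLTR44A went from 194 counts to 99 (2.1-fold higher at 16.5dpc, 1.64 to 2.7), and RLTR44B from 200.5 to 109.5 (1.96-fold, 1.55 to 2.5). RLTR44C and RLTR44D had log2 ratios of -0.63 and -0.86, also with intervals below 0. RLTR44E did not follow, at 88 and 95 counts (0.01, -0.42 to 0.45), and RLTR44-int was at 325 and 290.3 CPM (-0.16, -0.32 to -0.0070). RLTR45 and RLTR19-int, named after their values were seen, were lower on more counts. RLTR45 went from 1023 counts to 604 (1.81-fold higher at 16.5dpc, 1.64 to 2.01), and RLTR19-int from 7556 to 5484 (1.48-fold, 1.42 to 1.53).

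The class III entries matched by name, in the ERVL and MaLR lists, differed little. Families in no list may include others of this class. The ERVL list, which includes MERVL, an element best known from the totipotent embryo, had a median of 0.10 over 19 measured. Of its intervals 7 lay above 0 (36.8%) and 1 below (5.26%), beside 20.4% and 23.3% of all families. MERVL-int was at 2275 CPM at 16.5dpc and 2634 CPM at 10dpp, 1.16-fold higher at 10dpp (1.12 to 1.2). The interval of its LTR, MT2_Mm, held equality (827 and 849.5 CPM, ratio 1.03, 0.964 to 1.1). ERVL-int was the highest entry (157 and 218 counts, log2 ratio 0.37) and MLT2B2 the lowest (351 and 307 counts, -0.29). MaLR, a non-autonomous relative, had a median of 0.01 over 85 measured (-0.06 on total counts), with 19 intervals above 0 (22.4%) and 14 below (16.5%), beside 20.4% and 23.3% of all families. MTA_Mm, its youngest mouse group, was at 4383 and 4560 CPM, a log2 ratio of 0.057 that became -0.0053 on total counts, and MTA_Mm-int was at 2389 and 2257 CPM (-0.08). The MaLR extremes, MLT1A1-int with 37 and 25 counts and MLT1E2-int with 30 and 47, had intervals that held 0.

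**Figure D2:**
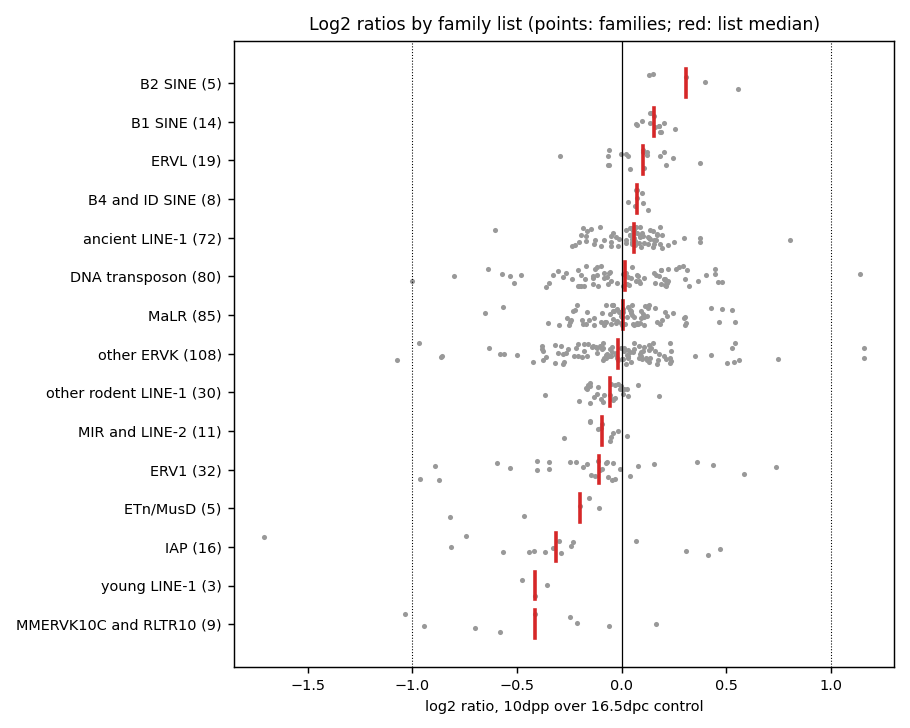
Log2 ratios of 10dpp over 16.5dpc (x axis) for the measured families of 15 name lists (y axis, number measured in brackets); points are families and red bars list medians. Medians run from -0.42 for MMERVK10C and RLTR10 to 0.31 for B2 SINEs, and the other ERVK list spreads from -1.07 to 1.16.

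SINEs, the most abundant of these repeats, were slightly higher at 10dpp. All 5 B2 entries and all 14 B1 entries had intervals above 0, as did 7 of the 8 B4 and ID entries, against 20.4% of all measured families. B2_Mm1a was at 7038 CPM at 16.5dpc and 10340 CPM at 10dpp, 1.47-fold higher (1.44 to 1.5). B2_Mm2 was at 26997 and 33455 CPM, 1.24-fold higher (1.23 to 1.25), and B3A, an older B2 relative, was the lowest of the group at 1.1-fold (1.08 to 1.11). B3 had the most counts of any family, 107246 at 16.5dpc and 127614 at 10dpp, and was 1.11-fold higher (1.1 to 1.12).

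B1 entries, which derive from the 7SL RNA gene as human Alu elements do, covered a narrower range. The highest was B1_Mus2 at 22375 and 26704 CPM (1.19-fold, 1.18 to 1.21) and the lowest B1F at 13726 and 14400 CPM (1.05-fold, 1.03 to 1.07). B1_Mm was 1.15-fold higher (1.13 to 1.17) and B1_Mus1 1.14-fold (1.12 to 1.15). Within the B4 and ID list the range ran from ID4, at 6270 and 6413 CPM, to RSINE1, at 30138 and 32851 CPM (1.09-fold, 1.08 to 1.1). ID_B1, B4 and B4A each had a ratio of 1.05. On total counts only 1 of these 8 intervals stayed above 0, against 12 of 14 for B1 and 5 of 5 for B2.

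By share of the listed counts, B2 entries took 12.39% at 16.5dpc (exact interval 12.35 to 12.44) and 13.93% at 10dpp (13.89 to 13.98). B1 entries took 19.72% (19.66 to 19.77) and 21.11% (21.06 to 21.16). The share of the other rodent LINE-1 entries was 12.96% at 16.5dpc (12.91 to 13.01) and 11.93% at 10dpp (11.89 to 11.97). These shares are of repeat counts only and sum to a fixed total, so they are not independent of each other. The share of ancient LINE-1 was 6.00% at 16.5dpc and 6.07% at 10dpp, and that of ERVL 1.66% and 1.71%.

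**Figure D3:**
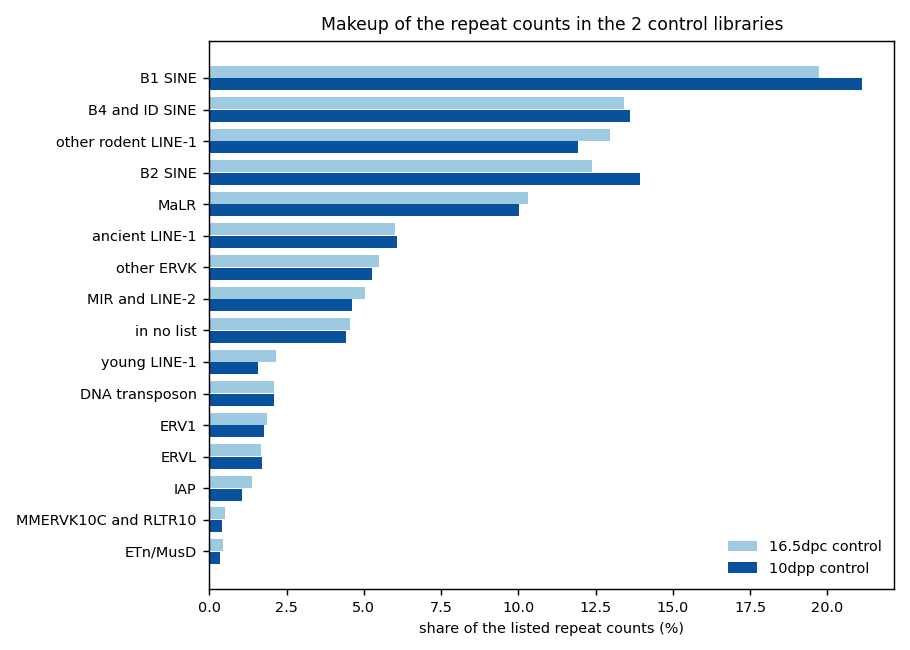
Share of the listed repeat counts (x axis, percent, from 0) that each name list took in the 16.5dpc control (light bars) and the 10dpp control (dark bars); each bar is 1 library, so there is no error over replicates. B1 and B2 bars are longer at 10dpp, and the young LINE-1 bar falls short of its 16.5dpc length, 1.58% against 2.15%.

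The oldest repeats had small ratios. The list of MIR and LINE-2, inactive since before the rodent lineage, also holds entries that by name are neither, L3b among them. It had a median of -0.09 over 11 entries, with 8 intervals below 0 and 0 above, against 23.3% and 20.4% of all families. L3b was the lowest (358 and 296 CPM, log2 ratio -0.28) and L2 the highest (5133 and 5225 CPM, 0.03). DNA transposons, cut-and-paste elements with no RNA intermediate, had 11 intervals above 0, 11 below and a median of 0.01 over 80 measured, or -0.05 on total counts. Each of these counts was 13.75% of the list, under the 20.4% and 23.3% of all families. Charlie21a was higher at 10dpp on few reads (40 and 95 counts, 2.2-fold, 1.52 to 3.29), and Arthur1A lower (64 and 34 counts, 2.0-fold higher at 16.5dpc, 1.31 to 3.15).

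The 190 measured families that belong to no list had a median of -0.05. Their intervals lay below 0 for 36 (18.9%) and above 0 for 17 (8.95%), both under the 23.3% and 20.4% of all families. MER52-int went from 67 counts to 35 (2.03-fold higher at 16.5dpc, 1.34 to 3.18), MER110 from 58 to 32 and LTR41B from 356 to 204 (1.87-fold, 1.57 to 2.23). MER70B was higher at 10dpp with 46 and 78 counts (1.57-fold, 1.09 to 2.33). RMER15, picked with its value in view, had the widest gap among the unlisted families with over 10000 counts, at 2857 and 3884 CPM (1.36-fold higher at 10dpp, 1.32 to 1.4). RLTR19A, an LTR of the other class II (ERVK) list and so not one of these, went from 89 counts to 141 (1.48-fold, 1.13 to 1.95). It was among the 10 highest families whose intervals lie above 0.

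Internal regions and LTRs of 1 element often had unequal ratios. For VL30, MuLV and ETnERV2 the internal entry exceeded its LTR by 0.15, 0.07 and 0.04 on the log2 scale, and for IAPEz-int, MERVL-int and MMERVK10C-int by 0.15, 0.17 and 0.41. For MuLV and ETnERV2 the intervals of the internal entry and its LTR overlapped. IAPLTR3-int exceeded IAPLTR3 by 1.47, and MTA_Mm-int lay below MTA_Mm, with a difference of -0.14. Pairings outside these chosen ones ran both ways. MMETn-int (-0.82) lay below the LTR RLTRETN_Mm (-0.20), RLTR1B-int below RLTR1B and RLTR6-int below RLTR6_Mm, while ETnERV3-int (-0.11) lay above RLTRETN_Mm. Over all LTR lists the medians were -0.01 for 79 internal entries and -0.04 for 195 LTRs.

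The same ages in the Dnmt3L knockout, which share no library with the controls, differed in the same direction for many of these families and in the opposite direction for IAPEz-int and several SINEs. Of 669 families measured there, 60 were at least 1.5-fold higher at 10dpp (8.97%) and 81 at least 1.5-fold lower (12.1%), and at 2-fold the counts were 12 (1.79%) and 24 (3.59%). Of the 33 families that were 1.5-fold lower in the controls and measured in the knockouts, 26 also lay below 0 in the knockouts, where 48.9% of all 667 shared families did. Of the 8 that were 1.5-fold higher, 7 also lay above 0, where 51.1% of all did. Across the 667 families Spearman's rho between the log2 ratios was 0.41 and Pearson's r 0.46, a description across families that share libraries and, for related entries, reads.

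Young LINE-1 also had log2 ratios below 0 in the knockout pair, -0.45 for L1Md_T, -0.34 for L1Md_A and -0.65 for L1Md_Gf. The direction was also shared for MMVL30-int (0.51, beside 0.74 in the controls), RLTR6_Mm (0.63 beside 0.58) and RLTR10A (-1.14 beside -1.04). For L1Md_T and MMVL30-int the counting intervals of the control and knockout pairs did not overlap. MMERGLN-int was further below 0 in the knockouts, at -1.89 beside -0.96. IAPEz-int was at 0.43 (0.40 to 0.46) in the knockout pair and -0.29 in the controls, and IAPLTR1_Mm at 0.56 (0.48 to 0.64) and -0.44. Other IAP entries stayed below 0 in the knockout pair, at -2.10 for IAPLTR3, -1.23 for IAPLTR3-int and -0.72 for IAPEY3-int, and the IAP median there was -0.46. B2_Mm1a was at -0.15 in the knockout pair and 0.55 in the controls, and the B1 median was 0.00 beside 0.16. The ancient LINE-1 median was 0.45 beside 0.06. These differences between the genotypes have no test, since each pair is 1 library per age.

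**Figure D4:**
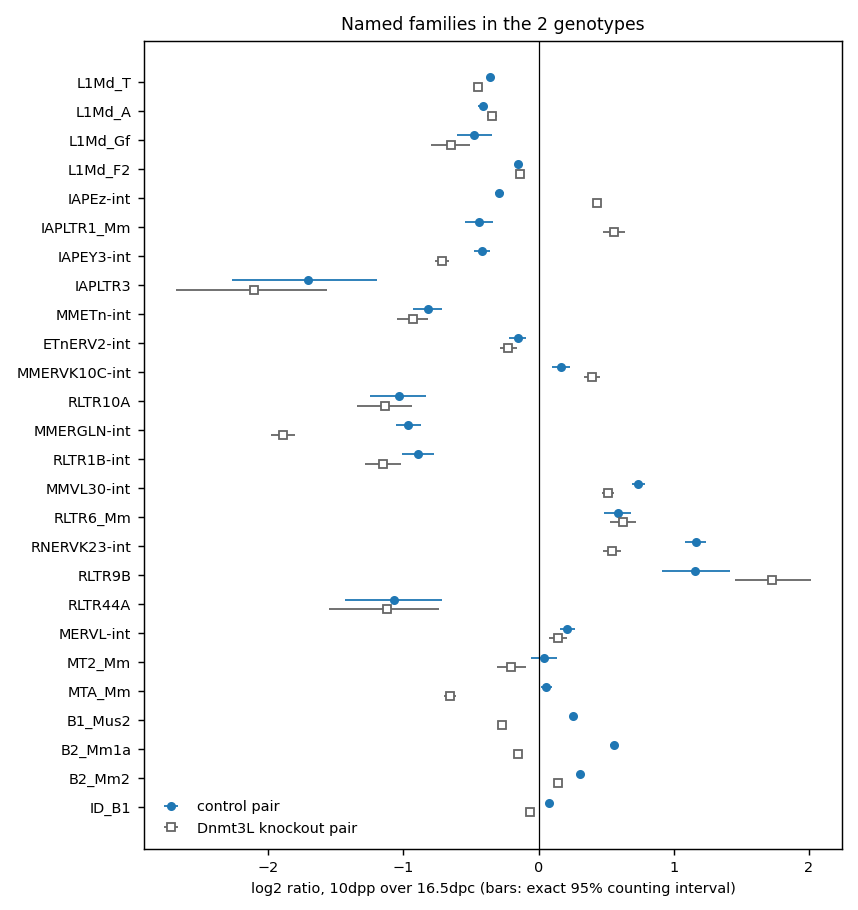
Log2 ratio of 10dpp over 16.5dpc (x axis) for 26 named families (y axis) in the control pair (filled circles) and the Dnmt3L knockout pair (open squares), with bars for the exact 95% counting interval, often narrower than the symbol. The symbols lie on the same side for the young LINE-1, MMVL30-int and MMERGLN-int entries and on opposite sides for IAPEz-int, IAPLTR1_Mm and B2_Mm1a.

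An age effect averaged over both genotypes was tested with edgeR's quasi-likelihood test on the 4 libraries at these ages, with genotype as a block and Benjamini-Hochberg adjustment over 728 families. It called 1 family higher at 10dpp (0.137%) and 5 lower (0.687%). The higher one was RLTR9B, with a log2 change of 1.44 ± 0.20 (SE, edgeR adjusted p = 0.0207). The lower ones were IAPLTR3 (-1.91 ± 0.28, adjusted p = 0.0207), MMERGLN-int (-1.43 ± 0.22, adjusted p = 0.0207), RLTR10A (-1.09 ± 0.16, adjusted p = 0.0207), RLTR1B-int (-1.02 ± 0.15, adjusted p = 0.0207) and MMETn-int (-0.88 ± 0.14, adjusted p = 0.0277). Each of the 6 differed the same way in 2 of 2 genotypes. The test uses these same 4 libraries and favours families whose genotypes agree, so this agreement is not separate support. MMETn-int, for example, was at 895 and 506 CPM in the controls and at 1088 and 570 CPM in the knockouts. Without adjustment, p was under 0.05 for 34 families with higher levels (4.67%) and 61 with lower levels (8.38%).

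These calls depend on the fit, which has 1 residual degree of freedom that also holds any difference of the age effect between genotypes. With all 6 libraries, or with no expression filter, edgeR called 0 families, while 15 higher and 48 lower, or 33 and 59, had an unadjusted p under 0.05. DESeq2 on the same 4 libraries called 5 higher and 10 lower. Over the alternatives the adjusted p ranged from 0.00243 to 0.603 for IAPLTR3, from 3.6e-07 to 0.255 for MMERGLN-int, from 0.00102 to 0.255 for RLTR10A, from 0.000114 to 0.485 for RLTR1B-int, from 0.000806 to 0.255 for MMETn-int and from 0.000114 to 0.255 for RLTR9B.

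The level at 10dpp was a low point for some of these families, a step for others and a high point for B2_Mm1a. For L1Md_T it was close to the level in the 20dpp control, which is set beside them here. That library is labelled wild type, has 8639952 listed counts, and the comparison with it shares the 10dpp library. IAPLTR3 was at 56.6, 17.2 and 550 CPM at 16.5dpc, 10dpp and 20dpp, and MMETn-int at 895, 506 and 1379 CPM. MMERGLN-int was at 1263, 647 and 964 CPM. MMVL30-int was higher at each later age, at 2517, 4198 and 7875 CPM, and so was RNERVK23-int, at 903, 2020 and 4293 CPM. L1Md_T was at 12335, 9632 and 9611 CPM, and B2_Mm1a at 7038, 10340 and 7218 CPM.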

How the data were processed

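Whole-testis RNA libraries (TRIzol, stranded Illumina TruSeq mRNA kit) were aligned by the authors with Bowtie to mm9, per the submitters' processing notes. The sources used here do not give versions, the repeat annotation, how reads were shared between families or whether strand was used. The deposited values are estimated counts per repeat family, summed over genomic copies, so near-identical families may exchange reads, reads from copies inside gene transcripts may be included, and no coordinate is given. In the control pair 12.1% and 13.3% of values were whole within 1e-06. Counts were scaled with TMM factors over all 6 libraries (edgeR 4.0.16, R 4.3.3). Intervals and fits used rounded counts, with DESeq2 1.42.0 as an alternative test. Ratios needed 50 counts in both libraries together, and 1.5-fold and 2-fold serve as descriptions of size. The 15 lists follow name patterns, and 256 families match none. Families named are those past 2-fold, the 10 highest and 10 lowest with intervals off 0, the extremes of each list, 30 entries always named, the 8 with most counts, and 9 internal and LTR pairs. Members of these families' own groups (such as the IAPLTR2, RLTR10, RLTR1B, RLTR9 and RLTR44 entries, and RLTR6-int) were added after their values were seen. The members and lists were chosen with earlier results of these data known. Fits and intervals were checked on simulated data. The simulated fits held no genotype effect and no difference of the age effect between genotypes, and the simulated intervals held counting error only. These checks therefore do not cover differences between genotypes or between pools. Alternatives were other scalings, minimums and added counts.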

Additional observations from a re-analysis of the deposited data

Results flagged for a closer look

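For 12 named families the age difference ran in opposite directions in the control and knockout pairs, with each counting interval on its own side of 0. The difference between the genotypes was not tested, since each pair is 1 library per age. Of the 667 families measured in both pairs, 24 were above 0 in the controls and below in the knockouts, 27 the reverse, 82 above in both and 97 below in both.

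Among them, 8 SINE entries were higher at 10dpp in the controls and lower in the knockouts. Other SINEs were not, such as B2_Mm2, at 0.31 and 0.14, and B3, at 0.15 and 0.064. The log2 ratios were 0.55 and -0.15 for B2_Mm1a, 0.26 and -0.27 for B1_Mus2, 0.20 and -0.23 for B1_Mm, and 0.18 and -0.32 for B1_Mus1. They were 0.12 and -0.074 for RSINE1, 0.076 and -0.063 for ID_B1, 0.066 and -0.17 for B4A, and 0.071 and -0.17 for B4. MTA_Mm, a MaLR LTR, had 0.057 in the controls and -0.65 in the knockouts. Another 2, both IAP entries, ran the other way, with -0.29 in the controls and 0.43 in the knockouts for IAPEz-int, and -0.44 and 0.56 for IAPLTR1_Mm, while the IAP medians were -0.31 and -0.46. L1MEg2 had -0.60 and 1.06 on 57 and 40 control counts, with an upper control bound of -0.0011. Scaled on total counts, the control ratio of MTA_Mm turned to -0.0053, and those of B4A (0.0029), B4 (0.0085) and ID_B1 (0.013) had intervals that held 0.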

How the results depend on the processing

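Scaling on total listed counts moved the young LINE-1 median to -0.48, other rodent LINE-1 to -0.12, MIR and LINE-2 to -0.16, B1 to 0.094, B2 to 0.25 and B4 with ID to 0.013. The ratio of summed counts gave -0.38 for young LINE-1 and 0.23 for B2. MTA_Mm turned to -0.0053 on total counts, where 23 others of the 64 named families also moved beyond their interval, ID4 and L2 to -0.030 and -0.037 from ratios whose intervals held 0. The other 3 alternatives for named families moved none beyond its interval. On total counts 9 families were at least 2-fold lower and 87 had intervals above 0. A minimum of 200 counts kept 571 families in place of 687, of which 4 were at least 1.5-fold higher, 20 lower, and 2 at least 2-fold lower. Dropping the minimum took in 781 families and gave 33 that were 1.5-fold or more higher, 21 higher by 2-fold and 9 lower by 2-fold. With 5 counts added 3 were at least 2-fold lower. In the averaged age effect, edgeR on all 6 libraries and edgeR with no filter each called 0 higher and 0 lower, and DESeq2 called 5 and 10. The cause was not tested. No paired analysis was possible because the labels give 1 library per group and no replicate numbers. Without replicate libraries none could be left out, and an age difference cannot be told apart from one between pools or sequencing runs.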

Other observations

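The entries given here fall outside the naming rule and were chosen after their values were seen. FordPrefect, a DNA element, was at 645 CPM at 16.5dpc and 880 CPM at 10dpp in the controls (log2 ratio 0.45, 0.35 to 0.55), and its log2 ratio in the knockout pair was -1.79 (-1.90 to -1.69). Tigger16a had -0.27 in the controls (-0.44 to -0.09) and 1.34 in the knockouts (1.15 to 1.53). MTEb-int, a MaLR internal entry, was lower at 10dpp in both pairs, at -0.57 (-0.73 to -0.40) and -0.88. ORR1A2-int was higher in both, at 0.31 (0.24 to 0.38) and 0.45, and RMER6B likewise, at 0.50 and 0.51.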
